A study of Danio rerio with 6 samples.

Results

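The genes described here encode the retinol, aldehyde and alcohol dehydrogenases, the aldo-keto reductases and the short-chain dehydrogenases of zebrafish larvae. Members were the rows of the deposited table whose gene name starts with dhrs, with akr1, or with rdh, aldh or adh followed by a digit. There were 59 such gene IDs, carrying 58 symbols, of 24470 in the table, and the annotation in the table calls each of the 59 protein coding. The symbol dhrs13b.1 stands on a pair of gene IDs.

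Messenger RNA was sequenced from whole zebrafish larvae of the transgenic line Tg(Brn3C:mGFP), in which Brn3C (pou4f3) regulatory sequence drives a membrane-bound green fluorescent protein in hair cells, and which both groups carried. The treated group held 3 libraries of larvae kept in 2.5 µM 4-octyl itaconate, an ester form of the metabolite itaconate that crosses cell membranes, for 48 h from 3 days post fertilization. The control group held 3 libraries, and both groups were 5 days old. What the control larvae received, and how many larvae or clutches went into each library, is unstated in the labels. The p-values therefore measure spread among these 6 libraries, and that spread may be technical.

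These enzymes move hydrogen between alcohols, aldehydes and acids. In the retinoid pathway, retinol (vitamin A) is oxidized to retinal by retinol dehydrogenases of the Rdh and Dhrs families, and retinal is then oxidized irreversibly to retinoic acid by Aldh1a enzymes. Retinoic acid patterns the hindbrain, trunk and eye of the embryo and is broken down by Cyp26 enzymes, while in the eye related dehydrogenases serve the visual cycle, which regenerates the light-sensitive form of retinal. Other aldehyde dehydrogenases act in the breakdown of amino acids, fatty aldehydes and acetaldehyde.

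Libraries held 14763897 to 23507208 recovered reads, of which 13771 to 18550 in control and 47618 to 64797 in treated libraries fell on the 59 genes. Values are normalized counts, each the count of a gene scaled by a single factor for its library. Fold is the ratio of group means, and log2 fold change is treated minus control of log2(normalized count + 1), tested with limma and called at a Benjamini-Hochberg adjusted p under 0.05. Tissue markers differed widely between the groups. Beside the counts of markers here and further below, 35.0% of all genes tested rose and 34.3% fell. Hepatocyte markers (16 matched of 17 written) made up 1.59% to 1.67% of the reads of treated libraries and 0.0366% to 0.0473% of those of controls, and 16 of 16 rose. Enterocyte markers (10 gene IDs) took 0.200% to 0.213% against 0.0140% to 0.0183%, and 10 of 10 rose. The hepatocyte marker ahsg2 and the enterocyte marker mep1b reached the mean of 10 normalized counts needed for testing through the treated group, where they are higher. Skeletal muscle markers took 5.62% to 6.86% against 0.773% to 0.794%, and 10 of 10 rose. Epidermis markers took 0.754% to 1.41% against 0.329% to 0.414%, and 6 of 6 rose. Neuron markers took 0.0440% to 0.0718% against 0.546% to 0.610%, and 13 of 13 fell. Glial markers took 0.0565% to 0.0719% against 0.236% to 0.255%, and 4 of 5 fell. No marker of these lists was at 0 throughout a group, which is a low bar, since mep1b held 0, 3 and 0 reads in control libraries. In whole larvae, fewer cells of a type and less RNA per cell are among the sources of difference that cannot be told apart.

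Transcripts of the 59 genes were mostly more abundant in treated larvae. With limma, 43 of 59 rose, 5 fell and 11 did not pass. Over all 20352 genes tested, 35.0% rose and 34.3% fell, 69.3% being called in either direction. The median log2 fold change was 1.56 over the 59 genes, a 2.95-fold difference, against 0.01 over all genes tested. In 43 genes each treated library lay above each control library and in 5 each lay below, where 37.4% and 36.8% of all genes tested did so, 74.1% in either direction. Summed, the 59 genes made up 0.264% ± 0.0203 of reads from treated larvae and 0.0945% ± 0.00719 of those from controls (mean ± SD, n = 3 per group). All 59 passed the filter, an average of 10 or more normalized counts across the 6 libraries, and rdh20 and aldh3b2 passed it through the treated group, where they are higher.

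**Figure D1:**
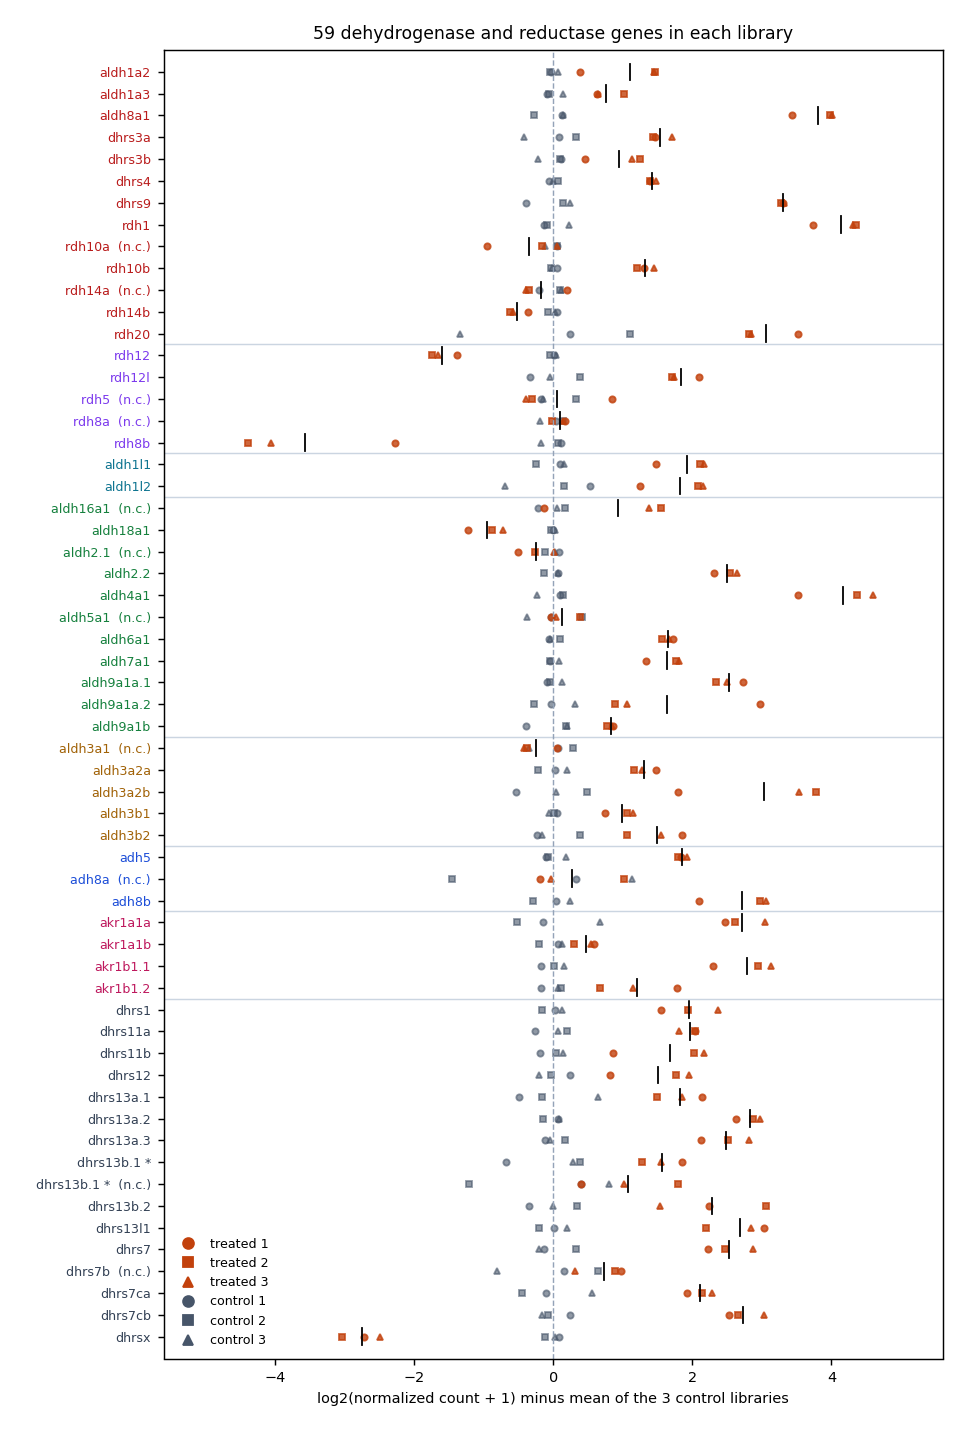
Values of the 59 genes in each library, as log2(normalized count + 1) minus the mean of the 3 control libraries (x axis), with 1 gene per line, symbols for libraries, gene names coloured by role and a black tick at the log2 fold change. Genes marked (n.c.) were not called and an asterisk marks the symbol on a pair of gene IDs; log2 fold changes run from -3.57 (rdh8b) to 4.16 (aldh4a1).

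**Figure D2:**
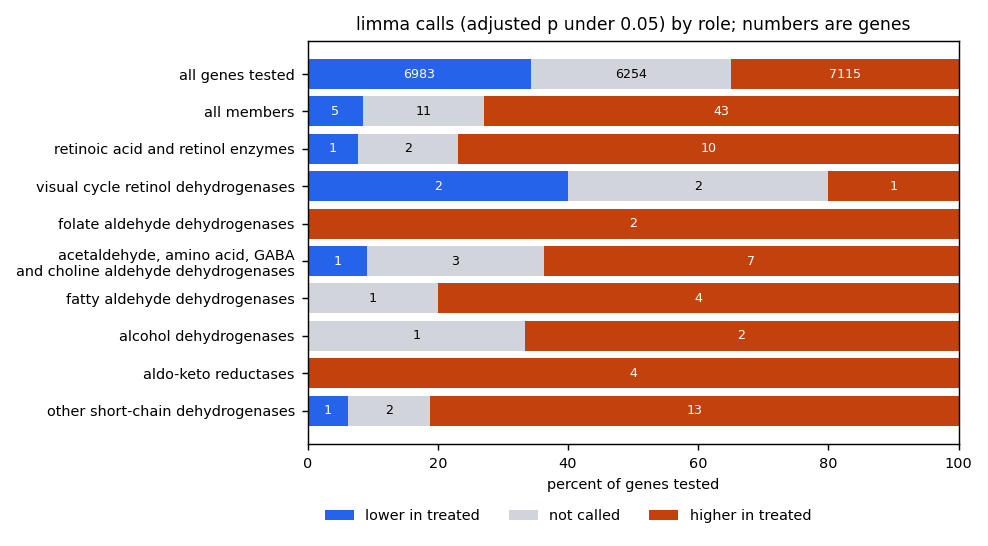
Percent of the genes tested (x axis) that limma called lower (blue), did not call (grey) or called higher (orange) in treated larvae, by role, with the number of genes in each bar. Among all genes tested 7115 were higher and 6983 lower, while among the 59 genes 43 were higher and 5 lower.

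Of 13 enzymes of retinol and retinoic acid metabolism outside the visual cycle, 10 rose, 1 fell and 2 did not pass. Here and in the counts by role below, the shares over all genes tested were 35.0% higher and 34.3% lower. Expression of rdh1, named for retinol dehydrogenase activity, stood at 59.2, 61.1 and 76.1 normalized counts in control replicates 1, 2 and 3 and at 882, 1349.9 and 1306 in treated replicates 1, 2 and 3. The groups lay far apart, an 18.0-fold rise (log2 fold change 4.13, SE 0.22, limma adjusted p = 1.63e-06). The gene dhrs9, whose human counterpart oxidizes retinol and steroids, stood at 74.2, 108 and 116 in control and at 974, 956 and 982 in treated libraries. Its 9.79-fold rise (log2 fold change 3.30, SE 0.20, limma adjusted p = 2.61e-06) was nearly equal in the 3 treated libraries. The low-expressed rdh20 passed the filter through the treated group, where it is higher. It stood at 2.01, 4.44 and 0 normalized counts in control libraries (2, 4 and 0 reads). In treated libraries it stood at 28.0, 16.9 and 17.2 (25, 15 and 18 reads). It rose 9.63-fold (limma adjusted p = 0.00523), 20.6-fold without control replicate 2 and 6.42-fold without control replicate 3.

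The genes for the first step of embryonic retinoic acid synthesis, rdh10a and rdh10b, had different values of change. Expression of rdh10b stood at 106, 99.999 and 101 in control and 254, 237 and 283 in treated libraries, without overlap. It rose 2.52-fold (log2 fold change 1.32, SE 0.18, limma adjusted p = 0.000213). Expression of rdh10a stood at 1326, 1327 and 1181 in control and 661, 1143 and 1323 in treated libraries. The groups overlapped, treated replicate 1 lying lowest, and the gene was not called (log2 fold change -0.35, SE 0.24, limma adjusted p = 0.221). The log2 ratio of rdh10a to rdh10b differed between the groups by -1.67, and the ratio in each treated library lay below that in each control library (exact permutation p = 0.1, two-sided, the smallest that 3 against 3 libraries can give).

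Both measured retinal dehydrogenase genes of retinoic acid synthesis rose. Expression of aldh1a2, the main retinoic acid producing enzyme of the trunk, stood at 629.6, 623 and 669.5 in control libraries. In treated replicates 1, 2 and 3 it stood at 837, 1772 and 1746, so that replicate 1 lay nearest the controls. The rise was 2.27-fold (log2 fold change 1.099, SE 0.27, limma adjusted p = 0.00605). Expression of aldh1a3, an eye and ear form, stood at 70.2, 72.2 and 83.2 in control and at 117, 153 and 117 in treated libraries, a 1.72-fold rise (log2 fold change 0.76, SE 0.23, limma adjusted p = 0.0143). This call ended when treated replicate 2 was left out (limma adjusted p = 0.054). The gene aldh8a1, whose mammalian counterpart is an aldehyde dehydrogenase of liver and kidney, stood at 53.1, 40.0 and 53.6 in control and at 536, 781 and 792 in treated libraries, 14.4-fold higher (log2 fold change 3.81, SE 0.23, limma adjusted p = 2.56e-06). Hepatocyte markers, at a median log2 fold change of 4.89, rose in the same libraries, and their part in the rises of aldh8a1, rdh1 and dhrs9 was not tested.

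The reverse reaction, reduction of retinal to retinol, is served by dhrs3a and dhrs3b, which limit retinoic acid synthesis in embryos. Expression of dhrs3a stood at 112, 133 and 78.9 in control and 294, 288 and 349 in treated libraries. Expression of dhrs3b stood at 141, 140.0 and 113 in control and 179, 310.5 and 289 in treated libraries. Both rose without overlap between groups. The rise of dhrs3a was 2.87-fold (log2 fold change 1.54, SE 0.23, limma adjusted p = 0.000378). That of dhrs3b was 1.98-fold (log2 fold change 0.95, SE 0.25, limma adjusted p = 0.00809). The carbonyl reductase gene dhrs4, whose mammalian counterpart reduces retinal, rose 2.68-fold, from 302 to 328 in control to 826 to 873 in treated libraries (limma adjusted p = 2.73e-05). Of the rdh14 genes, rdh14a did not pass, at 122 to 184 in treated and 138 to 173 in control libraries (limma adjusted p = 0.509). The other, rdh14b, was at 236 to 284 in treated and 344 to 378 in control libraries and fell 1.43-fold (log2 fold change -0.52, SE 0.16, limma adjusted p = 0.0179). That call ended without treated replicate 2 and without control replicates 1 and 3 (limma adjusted p = 0.0506, 0.0657 and 0.0621). It also ended with upper-quartile scaling (0.302) and quantile normalization (0.103).

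Of the 3 genes of retinoic acid breakdown, cyp26c1 fell and the others did not pass. Expression of cyp26c1 stood at 244, 203 and 145 in control and 104, 111 and 96.4 in treated libraries and fell 1.898-fold (log2 fold change -0.89, SE 0.24, limma adjusted p = 0.00868). With upper-quartile scaling that adjusted p was 0.0574. Expression of cyp26a1 stood at 357, 288 and 209 in control and 126, 199 and 246 in treated libraries, overlapping (log2 fold change -0.60, SE 0.29, limma adjusted p = 0.0972). It passed without treated replicate 3, with a log2 fold change of -0.81 (limma adjusted p = 0.048). Expression of cyp26b1 stood at 683 to 738 in treated and 732 to 961 in control libraries (log2 fold change -0.20, SE 0.15, limma adjusted p = 0.263). Its sign was positive with upper-quartile scaling and quantile normalization.

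**Figure D3:**
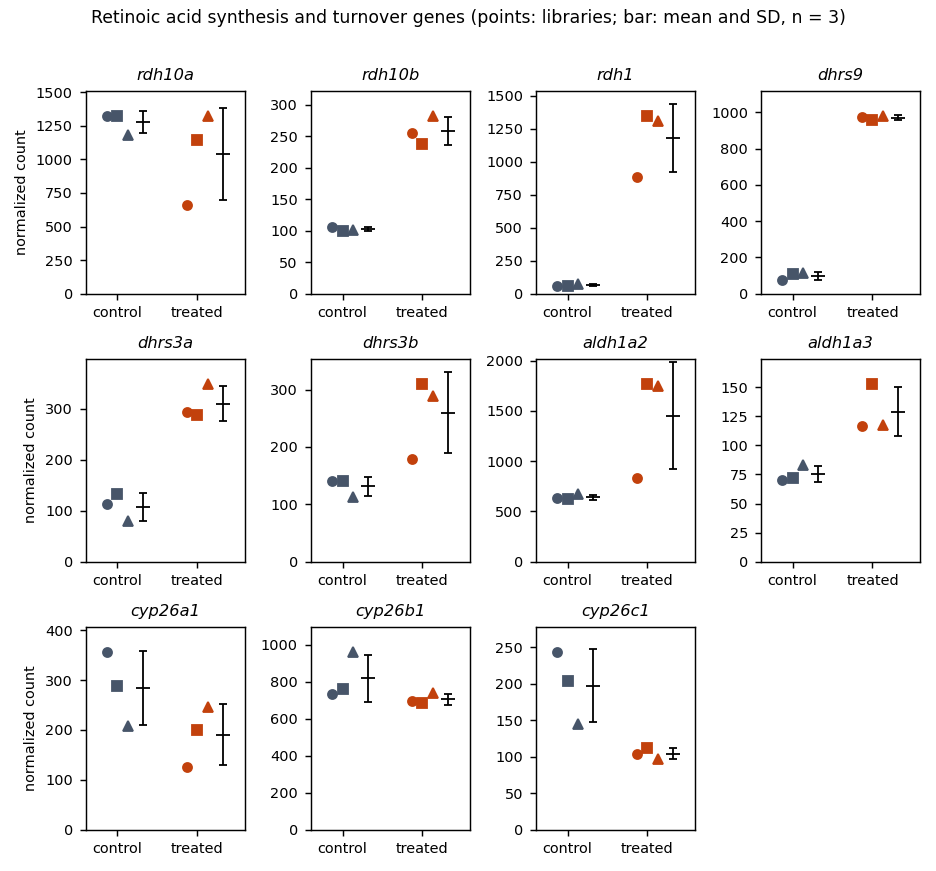
Normalized counts (y axes, starting at 0) of 11 genes of retinoic acid synthesis, reversal and breakdown in control (grey) and treated (orange) libraries, with circles, squares and triangles for replicates 1, 2 and 3 and the mean and SD of each group beside them (n = 3). For aldh1a2 the treated libraries stand at 837, 1772 and 1746 against 623 to 669.5 in controls, while the treated and control values of rdh10a, cyp26a1 and cyp26b1 overlap.

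Other genes of retinoid handling went both ways. The list held carriers, transporters, receptors, breakdown enzymes and visual cycle genes, and 45 of its 47 symbols were matched and tested. With limma, 25 rose, 11 fell and 9 did not pass (55.6% higher and 24.4% lower, against 35.0% and 34.3% of all genes tested), with a median log2 fold change of 0.97. The number that fell was 6 with upper-quartile scaling and 14 without treated replicate 1. Of the 25, the receptor genes rargb and rxrab passed the filter through the treated group, where they are higher. Among carriers of retinol, rbp4, the plasma carrier made by the liver, rose 20.7-fold (log2 fold change 4.30, SE 0.25) and ttr, its partner in plasma in mammals, 74.4-fold (6.07, SE 0.29). The cellular carriers rbp2a and rbp2b, counterparts of an intestinal form, rose 16.4-fold and 24.2-fold, and bco1l, related to the enzyme that splits carotene, 9.21-fold (limma adjusted p of the 5 genes 1.22e-06 to 2.27e-05). Of the 10 receptor genes 5 rose, 3 fell and 2 did not pass, or 50% higher and 30% lower. The gene rarga, for a retinoic acid receptor, rose 3.85-fold from 203 to 242 in control to 787 to 869 in treated libraries (limma adjusted p = 8.39e-06). The receptor genes rxrgb, raraa and rxrbb fell 2.63-fold, 1.59-fold and 1.37-fold (limma adjusted p = 0.000325, 0.00704 and 0.0345). The calls of raraa and rxrbb ended with upper-quartile scaling (limma adjusted p = 0.0900 and 0.480). In the same libraries 10 of 10 enterocyte and 16 of 16 hepatocyte markers rose, and their part in these values was not tested.

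Of the 5 retinol dehydrogenase genes placed in the visual cycle by their symbols, 2 fell, 1 rose and 2 did not pass. Over all genes tested, 34.3% fell and 35.0% rose, so these counts do not set the 5 genes apart. Expression of rdh8b, for an enzyme that reduces retinal in photoreceptors, stood at 274, 268 and 224 in control libraries. In treated replicates 1, 2 and 3 it stood at 51.6, 11.2 and 14.3, replicate 1 lying highest, and the gene fell 9.93-fold (log2 fold change -3.57, SE 0.50, limma adjusted p = 0.000231). The treated mean was 0.101 of the control mean, and 0.0501 without treated replicate 1. Its paralog rdh8a stood at 593, 637 and 502 in control and 648, 566 and 634 in treated libraries, overlapping, and was not called (log2 fold change 0.10, SE 0.15, limma adjusted p = 0.586). With upper-quartile scaling and quantile normalization rdh8a passed as higher (limma adjusted p = 0.0418 and 0.0272). The log2 ratio of rdh8a to rdh8b was higher in treated larvae by 3.67 on average, with no overlap between the groups (exact permutation p = 0.1, two-sided).

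Expression of rdh12, a photoreceptor retinal reductase gene, stood at 534, 513 and 549.7 in control and 203, 159 and 169 in treated libraries. It fell 3.01-fold (log2 fold change -1.59, SE 0.17, limma adjusted p = 4.09e-05). The gene rdh12l moved the other way, from 46.1, 76.7 and 56.4 in control to 252, 192 and 197 in treated libraries, 3.58-fold higher (log2 fold change 1.84, SE 0.25, limma adjusted p = 0.000219). Expression of rdh5, for the 11-cis retinol dehydrogenase of the retinal pigment epithelium, stood at 406, 182 and 171 in treated and 199, 283 and 203 in control libraries. Its groups overlapped and it was not called (log2 fold change 0.05, SE 0.33, limma adjusted p = 0.903), the log2 fold change being -0.35 without treated replicate 1. Photoreceptor markers (16 matched of 17) made up 0.0882% to 0.387% of the reads of treated libraries and 0.937% to 1.53% of those of controls, with 14 of 16 lower and none at 0 throughout a group. Of 5 markers of the retinal pigment epithelium, 3 rose, 1 did not pass and best1 was below the filter. The 4 tested (rpe65a, rgra, rlbp1b and stra6) also belong to the retinoid handling genes counted above, so these counts are not separate. The rise of rgra, one of the 3, was lost without treated replicate 3 or any 1 control replicate, without the intensity trend and with quantile normalization (limma adjusted p from 0.0523 to 0.0931). The 5 pigment epithelium markers made up 0.0120% to 0.0206% of the reads of treated libraries and 0.00830% to 0.0126% of those of controls. The part of these cells in the values of the rdh genes was not tested.

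**Figure D4:**
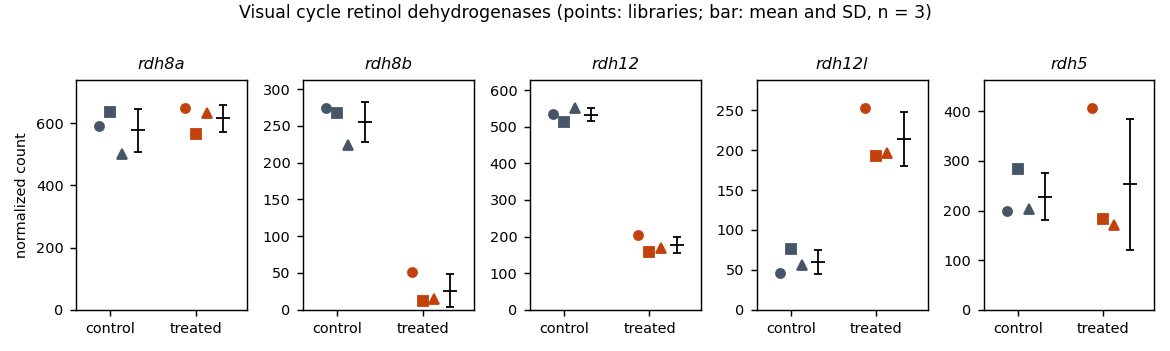
Normalized counts (y axes, starting at 0) of the 5 retinol dehydrogenase genes placed in the visual cycle by their symbols. Control libraries are grey and treated libraries orange, with circles, squares and triangles for replicates 1, 2 and 3. The mean and SD of each group are shown (n = 3). Treated libraries lie below controls for rdh8b and rdh12, above them for rdh12l, and overlap them for rdh8a and rdh5.

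Of 11 genes for aldehyde dehydrogenases of acetaldehyde, amino acid, GABA and carnitine metabolism, 7 rose, 1 fell and 3 did not pass. Expression of aldh4a1, for the mitochondrial enzyme that completes proline breakdown to glutamate, stood at 46.1, 47.8 and 36.6 in control libraries. In treated replicates 1, 2 and 3 it stood at 507, 915 and 1069, a 19.1-fold rise (log2 fold change 4.16, SE 0.29, limma adjusted p = 4.77e-06). Expression of aldh18a1, for the enzyme that starts proline synthesis from glutamate, stood at 998, 979 and 1023 in control and 427, 541 and 605 in treated libraries. The groups did not overlap, and it fell 1.91-fold (log2 fold change -0.94, SE 0.16, limma adjusted p = 0.00083). The gene aldh6a1, for valine and thymine breakdown, rose 3.13-fold, from 1912 to 2132 in control to 5866 to 6547 in treated libraries (limma adjusted p = 7.79e-06). The gene aldh7a1, for lysine breakdown, rose 3.15-fold, from 916 to 999 in control to 2379.8 to 3327 in treated libraries (limma adjusted p = 2.89e-05). By contrast aldh5a1, for the breakdown of the neurotransmitter GABA, overlapped between groups (219 to 292 in treated, 171 to 296 in control libraries; limma adjusted p = 0.631). Hepatocyte and muscle markers rose and neuron markers fell in the same libraries, and their part in these values was not tested.

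The mitochondrial acetaldehyde dehydrogenase genes aldh2.1 and aldh2.2 had different values of change. Expression of aldh2.2 stood at 282, 247 and 282 in control and 1336, 1568 and 1694 in treated libraries, a 5.68-fold rise (log2 fold change 2.50, SE 0.15, limma adjusted p = 2.82e-06). Expression of aldh2.1 stood at 766, 667 and 737 in control and 509, 601 and 727 in treated libraries, overlapping (log2 fold change -0.25, SE 0.17, limma adjusted p = 0.208). Its log2 fold change was above 0 with upper-quartile scaling and quantile normalization, without passing. The log2 ratio of aldh2.1 to aldh2.2 was 1.42 ± 0.0301 in control and -1.33 ± 0.0971 in treated libraries (SD, n = 3 per group; exact permutation p = 0.1, two-sided). The labels do not say how reads shared by near-identical genes were divided, so values of like-named neighbours are uncertain to that extent.

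Of the aldh9a1 genes, whose mammalian product makes the carnitine precursor butyrobetaine, aldh9a1a.1 stood at 2163, 2219 and 2502 in control and 15175, 11656 and 12984 in treated libraries. It rose 5.78-fold (log2 fold change 2.53, SE 0.15, limma adjusted p = 2.36e-06). Its neighbour aldh9a1a.2 stood at 10.0 to 15.5 in control and at 103, 23.6 and 26.7 in treated libraries, treated replicate 1 lying far above the others. The rise was 4.09-fold (limma adjusted p = 0.0301) and 2.01-fold without treated replicate 1 (limma adjusted p = 0.0817), and the call also ended without control replicate 1 or 2 (0.0715 and 0.0874) and with quantile normalization (0.0811). The third gene, aldh9a1b, rose 1.75-fold (limma adjusted p = 0.00623). Expression of aldh16a1 stood at 158, 509.6 and 455 in treated and 149, 196 and 180.4 in control libraries and was not called (log2 fold change 0.93, limma adjusted p = 0.0658). Without treated replicate 1, which lay among the controls, it was 1.46 (limma adjusted p = 3.96e-05), and it also passed with upper-quartile scaling, with arrayWeights, with the replicate block and by edgeR and DESeq2 (adjusted p of 0.0194, 0.000691, 0.0246, 0.0273 and 0.00986).

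Both folate aldehyde dehydrogenase genes rose. Expression of aldh1l1, for the cytosolic 10-formyltetrahydrofolate dehydrogenase known from liver and astrocytes, stood at 694, 546 and 722 in control and 1815, 2807 and 2917 in treated libraries. It rose 3.84-fold (log2 fold change 1.92, SE 0.21, limma adjusted p = 5.36e-05). Its mitochondrial relative aldh1l2 stood at 73.2, 56.7 and 31.0 in control and 121, 217 and 229 in treated libraries, 3.53-fold higher (log2 fold change 1.83, SE 0.37, limma adjusted p = 0.00215). Treated replicate 1 was the lowest treated library for both. Of the glial markers 4 of 5 fell, and 16 of 16 hepatocyte markers rose, in the same libraries, and their part was not tested.

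Fatty aldehyde dehydrogenase genes rose in 4 of 5 cases. Expression of aldh3a2a, for oxidation of long-chain aldehydes, stood at 129, 109 and 145 in control and 354, 285 and 308 in treated libraries, 2.47-fold higher (log2 fold change 1.30, SE 0.19, limma adjusted p = 0.000338). Its paralog aldh3a2b stood at 11.03, 23.3 and 16.9 in control and 59.4, 236 and 200.5 in treated libraries, 9.67-fold higher (log2 fold change 3.03, SE 0.53, limma adjusted p = 0.000882). Treated replicate 1 again lay nearest the controls. Expression of aldh3b1 rose 2.003-fold (log2 fold change 0.99, SE 0.19, limma adjusted p = 0.00149), from 124 to 134 in control to 219 to 289 in treated libraries. The low-expressed aldh3b2 passed the filter through the treated group, where it is higher. It stood at 11.2 to 20.2 in treated and 4.01 to 6.67 in control libraries and rose 3.20-fold (limma adjusted p = 0.0282). Its call ended without treated replicate 1 or 3 (limma adjusted p = 0.0823 and 0.0795), without control replicate 1 or 3 (0.07 and 0.064), with quantile normalization (0.117) and with the replicate block (0.0639). Expression of aldh3a1, a corneal enzyme gene in mammals, overlapped between groups and was not called (log2 fold change -0.25, limma adjusted p = 0.403; above 0 with upper-quartile scaling).

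Of the 3 alcohol dehydrogenase genes, adh5 and adh8b rose. Expression of adh5, for the enzyme that clears formaldehyde through glutathione, stood at 897, 919 and 1092 in control and 3464, 3352 and 3685 in treated libraries. It rose 3.61-fold (log2 fold change 1.86, SE 0.14, limma adjusted p = 6.17e-06), with close values among the treated libraries. Expression of adh8b stood at 450.2, 357 and 516 in control and 1859.7, 3422 and 3657 in treated libraries, 6.76-fold higher (log2 fold change 2.71, SE 0.26, limma adjusted p = 2.83e-05). Its neighbour adh8a was scarcely detected, at 10.0, 2.22 and 18.3 in control and 6.73, 16.9 and 7.64 in treated libraries. A difference in adh8a was not detectable at this depth (log2 fold change 0.27, SE 0.75, limma adjusted p = 0.764). The sign for adh8a changed with quantile normalization and without treated replicate 2 or control replicate 2.

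All 4 aldo-keto reductase genes rose with limma, by unequal amounts. Expression of akr1b1.1, for aldose reductase, which reduces glucose to sorbitol, stood at 314, 359 and 397 in control and 1751, 2728 and 3122 in treated libraries. It rose 7.10-fold (log2 fold change 2.79, SE 0.22, limma adjusted p = 9.13e-06). Its neighbour akr1b1.2 stood at 259, 317 and 307 in control and 1006, 469 and 653 in treated libraries, 2.41-fold higher (log2 fold change 1.202, SE 0.26, limma adjusted p = 0.00313). Treated replicate 1 was the lowest treated library for akr1b1.1 and the highest for akr1b1.2. Of the aldehyde reductase genes, akr1a1a stood at 22.1, 16.7 and 39.5 in control and 140.1, 154 and 209 in treated libraries, 6.44-fold higher (log2 fold change 2.71, SE 0.35, limma adjusted p = 0.000152). Its paralog akr1a1b rose 1.39-fold, from 462 to 579 in control to 651 to 797 in treated libraries (log2 fold change 0.47, limma adjusted p = 0.0253). The call of akr1a1b ended without treated replicate 3, control replicate 1 or control replicate 2 (limma adjusted p = 0.0686, 0.0549 and 0.0986) and without the intensity trend (0.0547).

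Among the 16 other short-chain dehydrogenase genes 13 rose, 1 fell and 2 did not pass. The gene that fell, dhrsx, whose human counterpart acts in dolichol synthesis, stood at 806, 706 and 781 in control and 115, 92.2 and 135 in treated libraries. The groups lay far apart, a 6.70-fold fall (log2 fold change -2.75, SE 0.19, limma adjusted p = 4.48e-06). Both dhrs7c genes, counterparts of a mammalian gene of the sarcoplasmic reticulum of heart and skeletal muscle, rose. Expression of dhrs7cb stood at 199.5, 161 and 151 in control and 978, 1069 and 1387 in treated libraries, 6.71-fold higher (log2 fold change 2.73, SE 0.19, limma adjusted p = 4.89e-06). Expression of dhrs7ca rose 4.39-fold, from 10.0 to 21.1 in control to 56.0 to 72.5 in treated libraries (limma adjusted p = 0.000865). Skeletal muscle markers rose in the same libraries with a median log2 fold change of 3.58, and their part was not tested.

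Of the 7 gene IDs with dhrs13 symbols, 6 rose. Expression of dhrs13a.2 stood at 54.1, 46.7 and 55.0 in control and 324, 386 and 415 in treated libraries, 7.22-fold higher (log2 fold change 2.82, SE 0.20, limma adjusted p = 5.4e-06). Its relatives dhrs13a.1, dhrs13a.3, dhrs13b.2 and dhrs13l1 were 3.43-fold, 5.78-fold, 5.47-fold and 6.62-fold higher (limma adjusted p between 1.36e-05 and 0.00144). Of the gene IDs that share the symbol dhrs13b.1, ENSDARG00000031814 rose 2.89-fold (limma adjusted p = 0.00316), while ENSDARG00000097019 stood at 19.1 to 51.7 in treated and 5.56 to 25.4 in control libraries and did not pass (limma adjusted p = 0.141). Of the remaining genes, dhrs1, dhrs7, dhrs11a, dhrs11b and dhrs12 were 3.98-fold, 5.82-fold, 4.09-fold, 3.45-fold and 3.00-fold higher (limma adjusted p between 2.49e-05 and 0.0017). The last, dhrs7b, for a peroxisomal enzyme of ether lipid synthesis in mammals, stood at 65.9 to 104 in treated and 29.6 to 83.3 in control libraries and did not pass (limma adjusted p = 0.129; 0.0459 with upper-quartile scaling).

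Like-named genes were then compared by the ratio of their values within each library. The members formed 17 such pairs, with symbols that differ only in a final letter a or b or in the number after a point, so that for example aldh1a2 and aldh1a3 were not paired. In 11 pairs both genes rose, in 6 pairs 1 gene was called and the other was not, and no pair was called in opposite directions. The pairs share genes, since dhrs13a.1, dhrs13a.2 and dhrs13a.3 were paired in each combination and dhrs13b.2 with each dhrs13b.1 gene ID. Taken singly, 43 of the 59 genes rose and 5 fell, against 35.0% and 34.3% of all genes tested. How often other pairs of genes share a call was not computed. In 8 pairs the log2 ratio of the genes did not overlap between the groups: rdh8a to rdh8b, akr1a1a to akr1a1b, akr1b1.1 to akr1b1.2, rdh14a to rdh14b, dhrs7ca to dhrs7cb, rdh10a to rdh10b, adh8a to adh8b and aldh2.1 to aldh2.2. Each had an exact permutation p of 0.1, the smallest possible, and 0.2125 after Benjamini-Hochberg adjustment over the 17 pairs, so none passed. The share of pairs of other genes whose ratios do not overlap was not computed, so the count of 8 has no baseline. Taken singly, 74.1% of all genes tested did not overlap between the groups. Differences in log2 ratio, treated minus control, ran from -2.75 (aldh2.1 to aldh2.2) to 3.67 (rdh8a to rdh8b).

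**Figure D5:**
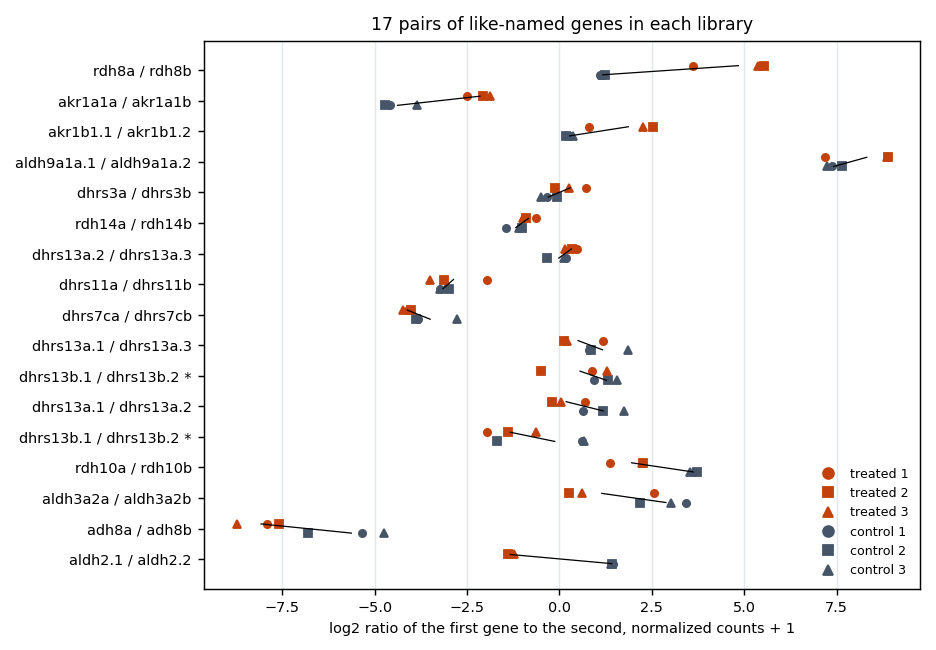
Log2 ratio of the first gene to the second (x axis, normalized counts + 1) in each library for 17 pairs of like-named genes, with control libraries in grey, treated libraries in orange and a line joining the group means. Asterisks mark the pairs with dhrs13b.1, which stands on 2 gene IDs. The mean log2 ratio of aldh2.1 to aldh2.2 is 1.42 in control and -1.33 in treated libraries. Gene lengths were not allowed for, so its sign does not rank these genes by level.

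Neighbouring members were looked up in the RefSeq annotation of assembly GRCz12tu, in which each of the 59 genes was found. In 8 pairs no protein-coding gene lay between the members. Both genes rose in rdh1 with dhrs9, dhrs13a.1 with dhrs13a.2, akr1b1.1 with akr1b1.2 and aldh9a1a.1 with aldh9a1a.2. In adh8a with adh8b, aldh3a1 with aldh3a2a, aldh2.1 with aldh2.2 and the gene IDs of dhrs13b.1, 1 gene rose and the other did not pass. The call of aldh9a1a.2 ended in some alternatives, as given above. Since 43 of the 59 genes rose, against 35.0% of all genes tested, shared rises are common among members in any place. How often members that are not neighbours share a call was not computed.

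Spread among libraries was close to that of all genes tested. The median coefficient of variation over the 59 genes was 21.7% in treated and 13.8% in control larvae, against 22.7% and 14.9% over all genes tested. Treated replicate 1 was the lowest treated library in 30 genes and the highest in 21, that is in 50.8% and 35.6% of them, against 40.7% and 39.4% of all genes tested. It lay more than 1.5 times outside the other treated libraries in 18 genes (30.5%, against 26.2% of all genes tested). Without it 42 of the 59 genes rose and 5 fell.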

How the data were processed

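The authors deposited a signal value for each gene and library, a normalized count obtained by scaling the gene's count with a single library factor. The tools named, per the submitters' processing notes, are STAR 2.7.10a and Salmon 1.9.0, fastp 0.23.2, bcl2fastq 2.20.0.422 and DESeq2, with build GRCz11. Annotation release and filters are not given in the sources consulted. Dividing each library by its smallest value above 0 gave whole reads within 0.01 in 100% of values (largest deviation 0.000787).

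Genes averaging 10 or more normalized counts (20352, with 4118 left out) were tested as log2(value + 1) with limma 3.58.1 in R 4.3.3 (intensity trend, no covariate, Benjamini-Hochberg over all genes tested). This scale understates changes of low genes. edgeR 4.0.16 and DESeq2 1.42.0 on recovered reads were alternatives, calling 14033 and 14067 genes. Other alternatives covered the pseudocount, filter, scaling, limma options, a replicate block and each library left out. The smallest exact permutation p for 3 against 3 libraries is 0.1 (scipy 1.17.1). Figures used Python 3.11.15 and matplotlib 3.10.9.

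Members, roles and lists were chosen with earlier results of these data known. Full statistics are given for genes of retinoic acid synthesis and turnover, up to 3 members with the smallest p per role, the 8 largest rises and up to 8 largest falls with a mean of at least 50 in the higher group, and 6 genes of retinoid handling. Other values were picked after they were seen. The 7 hair cell markers stood on 8 gene IDs, of which 4 rose, 1 fell, 1 did not pass and 2 were below the filter. The marker that fell, pou4f3, passed the filter through the control group, where it is higher. Levels were not compared between genes, since lengths in the build used were not at hand.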

Additional observations from a re-analysis of the deposited data

How the results depend on the processing

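Over 19 alternatives, 43 of the 48 called members kept their call and none of the 48 changed sign. The number that rose lay between 40 and 46 and the number that fell was 4 or 5. The median log2 fold change of the 59 genes was 1.49 with a pseudocount of 5, 1.88 with upper-quartile scaling, 1.62 with arrayWeights, 1.68 by edgeR and 1.65 by DESeq2, and 1.46 to 1.69 with 1 library left out. Upper-quartile scaling moved the median of all genes tested to 0.33, the calls over all genes to 8492 higher and 5692 lower (59.9% of calls higher, against 50.5%) and the number of retinoid handling genes called lower to 6. Relative to the median of all genes, the members stood at 1.55 under both the deposited and the upper-quartile scaling. A single factor per library shifts all genes almost alike, so this value could hardly differ and does not test the scaling.

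The log2 fold changes given here with the opposite sign passed no test. With upper-quartile scaling they were rdh14a 0.14, aldh3a1 0.0708, aldh2.1 0.0689, rlbp1b 0.0355 and cyp26b1 0.12. With quantile normalization they were rdh10a 0.0040, aldh2.1 0.13, adh8a -0.33, rlbp1b 0.0808, cyp26b1 0.20 and lratb.1 -0.00307. With arrayWeights rdh5 was at -0.23. With each library left out in turn, values ran from -0.35 to 0.27 for rdh5, -0.46 to 0.83 for adh8a, -0.11 to 0.15 for rpe65b, -0.0567 to 0.34 for aldh5a1, -0.0299 to 0.47 for lratb.1 and -0.70 to 0.13 for rlbp1b, which was called lower without treated replicate 1 (-0.70, limma adjusted p = 0.0186). The difference in log2 ratio of dhrs11a to dhrs11b ran from -0.16 to 0.60. The cause was not tested.

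Deviations of same-numbered treated and control libraries from their group means correlated at -0.02, -0.06 and 0.05, and 1 of 3 treated libraries correlated best with its own number. With 3 libraries per group, these values cannot show whether same-numbered libraries were handled together, and the labels do not say. With the replicate block 43 members rose and 5 fell, and 13679 genes were called in all.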
